A study of Homo sapiens with 17 samples.

Results

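The genes described here are the keratins, the claudins and 9 further genes of epithelial adhesion and its regulation. They were read in differentiated stem cell cultures sorted for a SHOX2:GFP reporter and mCherry. Members were chosen by name: symbols of the form KRT or CLDN followed by a number (CLDN5, an endothelial claudin, was left out), with CDH1, EPCAM, SPINT1, SPINT2, ESRP1, GRHL2, ELF3, EPS8L1 and AP1M2. Of the 20218 genes in the table, 86 were members, made up of 55 keratins, 22 claudins and the 9 single-named genes. To be tested, a gene needed at least 1 FPKM (fragments per kilobase of transcript, scaled to the mapped fragments of a library) in at least 2 libraries. This left 37 members, namely 16 keratins, 12 claudins and 9 of the 9 single-named genes. Just inside this limit lay CLDN10, with a second-highest value of 1.02 FPKM, KRT16 with 1.15 and CLDN18 with 1.37. Just outside it lay KRT3 with 0.918, CLDN2 with 0.754 and KRT6C with 0.526 FPKM. Of the 49 members that were not tested, 6 were listed at 0 in every library, and 5 reached 1 FPKM in a single library. None of the 24 listed keratins of hair and root sheath was tested.

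Epithelial cells are joined by adherens junctions, in which E-cadherin (CDH1) binds its like on the neighbouring cell, and by tight junctions, whose strands are built of claudins. Keratins form intermediate filaments from pairs of type I and type II chains, KRT8 with KRT18 in simple epithelia and KRT5 with KRT14 or KRT15 in the basal layer of stratified epithelia. Heart muscle cells use desmin filaments and N-cadherin instead, while the epicardium and other mesothelia carry simple keratins.

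RNA-seq was made from 17 libraries of the H9 human embryonic stem cell line with a SHOX2:GFP reporter and mCherry, sorted into 3 populations after 25 or 40 days of differentiation. GFP+mCherry+ cells were represented by 3 libraries at day 25 (libraries 1, 4 and 7) and 2 at day 40 (10 and 13). The GFP-mCherry+ libraries were 2, 5 and 8 at day 25 and 11, 14 and 17 at day 40, and the GFP-mCherry- libraries were 3, 6 and 9, then 12, 15 and 18. The labels name 1 line and give the cell type of every library, reporter-negative ones included, as sinoatrial node-like cells. They describe CHIR99021, BMP4 and Activin A, then XAV939 alone for cardiomyocytes or, for sinoatrial cells, cucurbitacin, retinoic acid, SU5402, XAV939, Tyrphostin AG 490 and chidamide, and do not say which procedure a population came from or what drives mCherry. Nothing in them says that the libraries of a group were separate cultures, so p-values measure the spread between libraries, which may be technical.

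SHOX2, a transcription factor of the sinoatrial node, read between 49.0 and 139 FPKM in the 5 GFP+mCherry+ libraries and at most 2.41 FPKM in the others. TNNT2, cardiac troponin T, averaged 1796 ± 724 FPKM (SD, n = 3) in GFP+mCherry+ cells, 5328 ± 807 (n = 3) in GFP-mCherry+ cells and 135 ± 28.8 (n = 3) in GFP-mCherry- cells at day 25. The deposited values summed to between 566029 and 660085 FPKM per library, with 12944 to 13793 genes at 1 FPKM or more. Read depth is unknown. Libraries 13 and 14 had the fewest genes above 0 (16493 and 16598), and results that rest on them are given without them.

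Within the tested members, the lowest of the 3 population means fell in GFP-mCherry+ cells for 29 of 37 at day 25 and 30 of 37 at day 40. GFP-mCherry- cells held the highest mean of 22 members at day 25 and 25 at day 40, and GFP+mCherry+ cells that of 15 and 11. The remaining member at day 40, KRT10, a keratin of the upper epidermis, had its highest mean in GFP-mCherry+ cells. Ranks of the means were not counted over all tested genes, so these counts describe the members without showing a pattern particular to them. Of the 37, 21 read at least 1 FPKM in every library. Another 5 did so in 1 population only, CLDN18, KRT16, KRT24 and KRT6A in GFP+mCherry+ cells and CLDN10 in GFP-mCherry- cells, so their passing the limit already depended on that population.

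**Figure D1:**
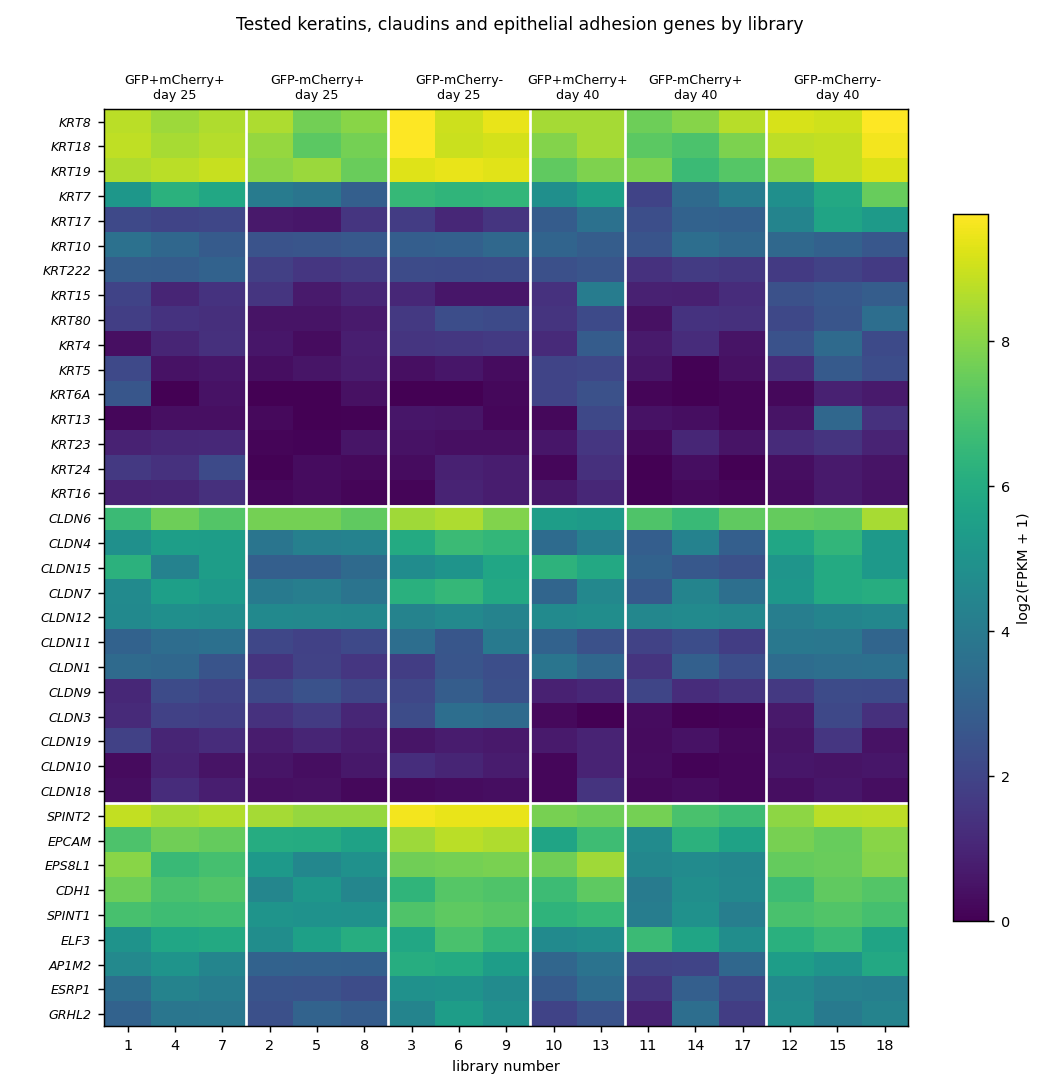
Levels of the 37 tested members (vertical, by family and falling mean level) in the 17 libraries (horizontal, by population and day), as log2(FPKM + 1). KRT8, KRT18, KRT19, SPINT2 and EPCAM form bright bands in every group, and most bands are darkest in GFP-mCherry+ libraries.

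E-cadherin separated the mCherry+ populations at both days. CDH1 read 194, 122 and 135 FPKM in the GFP+mCherry+ libraries of day 25, against 21.0, 34.9 and 21.1 in GFP-mCherry+ and 83.0, 145 and 134 in GFP-mCherry- cells. The values of day 40 were 103 and 160, then 15.4, 26.9 and 22.4, then 102, 165 and 141 FPKM. Every GFP-mCherry+ library lay below every other library, while the other populations overlapped. On the log2(FPKM + 1) scale used for all differences below, CDH1 was higher in GFP+mCherry+ than in GFP-mCherry+ cells by 2.51 ± 0.29 (standard error, SE) at day 25, with an adjusted p of 0.000129 (limma, two-sided, Benjamini-Hochberg over 14845 genes). At day 40 the difference was 2.55 ± 0.32 (adjusted p 0.000185). Between GFP+mCherry+ and GFP-mCherry- cells the differences were 0.32 ± 0.29 at day 25 (adjusted p 0.519) and -0.05 ± 0.32 at day 40 (adjusted p 0.934), which did not pass the test. This scale understates the change of genes with low values. In bulk samples, fewer cells of a type and less RNA per cell cannot be told apart.

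EPCAM, an adhesion molecule of epithelia and of pluripotent cells, followed another order. It read 130, 198 and 171.7 FPKM in GFP+mCherry+, 63.9, 63.6 and 48.2 in GFP-mCherry+ and 323, 425 and 381 in GFP-mCherry- libraries of day 25. The 3 groups did not overlap, and GFP+mCherry+ cells lay in between, 1.48 ± 0.33 above GFP-mCherry+ (adjusted p 0.00598) and 1.18 below GFP-mCherry- cells (difference -1.18 ± 0.33, adjusted p 0.0298). At day 40 EPCAM read 51.4 and 105, then 25.1, 75.8 and 47.7, then 216, 177 and 260 FPKM. The mCherry+ populations then overlapped (difference 0.69 ± 0.37, adjusted p 0.178), and GFP+mCherry+ cells were below GFP-mCherry- cells (-1.54 ± 0.37, adjusted p 0.0136). The calls against GFP-mCherry- cells were lost without any of libraries 1, 3, 6, 7 and 9 at day 25, and without 10 or 18 at day 40. The ratio of EPCAM to CDH1 FPKM was 0.669 to 1.63 in GFP+mCherry+ libraries and 2.84 to 3.89 in GFP-mCherry- libraries of day 25. At day 40 it was 0.499 to 0.658 and 1.08 to 2.12, so at both days the ranges of these populations did not overlap. The pluripotency markers, from cells which could share EPCAM, were 8 genes. At day 25 they summed to 9.54 to 23.7 FPKM in GFP+mCherry+, 7.51 to 12.0 in GFP-mCherry+ and 17.1 to 20.9 in GFP-mCherry- libraries. At day 40 the sums were 7.47 to 17.6, 6.32 to 7.60 and 8.57 to 8.75 FPKM. The part of such cells in the EPCAM levels was not tested.

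SPINT1 and SPINT2 encode membrane-bound inhibitors of serine proteases such as matriptase. SPINT1 read 121, 103 and 108 FPKM in GFP+mCherry+, 31.7, 30.04 and 29.2 in GFP-mCherry+ and 132, 160 and 149 in GFP-mCherry- cells at day 25. At day 40 it read 80.8 and 90.9, then 16.7, 29.2 and 17.0, then 123, 137 and 117 FPKM. The 3 populations did not overlap at either day, and the difference between the mCherry+ populations was 1.83 ± 0.18 (adjusted p 4.86e-05) and 2.03 ± 0.21 (adjusted p 4.8e-05). GFP+mCherry+ cells lay 0.40 to 0.54 below GFP-mCherry- cells (-0.40 ± 0.18 and -0.54 ± 0.21), with adjusted p of 0.179 and 0.0948. SPINT2 read 459, 359 and 391, then 346, 292 and 297, then 758, 678 and 682 FPKM at day 25, and 216 and 193, then 206, 123 and 103, then 276, 428 and 437 at day 40. It was highest in GFP-mCherry- cells, above GFP-mCherry+ cells at both days (GFP-mCherry+ minus GFP-mCherry-, -1.18 ± 0.23 and -1.43 ± 0.23, adjusted p 0.00123 and 0.00028). Between the mCherry+ populations its difference of 0.37 ± 0.23 and 0.56 ± 0.26 did not pass the test (adjusted p 0.287 and 0.124). As a result the ratio of SPINT2 to SPINT1 was 9.72 to 10.9 in GFP-mCherry+ and 3.47 to 3.79 in GFP+mCherry+ libraries of day 25. SPINT2 overlaps PPP1R14A in the annotation, and the strand of the libraries is not given in the sources used here.

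EPS8L1, a relative of the actin-capping protein EPS8, showed the largest difference of any tested member between the mCherry+ populations at day 40. Its values at day 25 were 258, 95.7 and 116 FPKM in GFP+mCherry+, 36.8, 21.6 and 29.6 in GFP-mCherry+ and 199, 209 and 223 in GFP-mCherry- cells. At day 40 they were 200 and 325, then 22.0, 24.8 and 21.7, then 174, 184 and 245 FPKM. GFP-mCherry+ libraries lay below all others, by 2.27 ± 0.30 at day 25 (adjusted p 0.000279) and 3.43 ± 0.33 at day 40 (adjusted p 4.35e-05) against GFP+mCherry+ cells. Against GFP-mCherry- cells the GFP+mCherry+ difference was -0.56 ± 0.30 and 0.36 ± 0.33 (adjusted p 0.254 and 0.515). AP1M2, the medium chain of the epithelial clathrin adaptor AP-1B that sorts proteins to the basolateral membrane, was graded. It read 23.1, 32.3 and 20.8, then 7.36, 7.20 and 6.89, then 66.8, 60.7 and 42.2 FPKM at day 25, and 8.41 and 12.0, then 2.75, 2.96 and 8.49, then 41.8, 31.97 and 57.8 at day 40. GFP+mCherry+ cells were above GFP-mCherry+ cells by 1.67 ± 0.32 and 1.09 ± 0.36 (adjusted p 0.00249 and 0.0342) and below GFP-mCherry- cells (-1.12 ± 0.32 and -1.98 ± 0.36, adjusted p 0.0329 and 0.00238). The mCherry+ groups overlapped at day 40, where the call was lost without library 11, 13 or 14. The day 25 call against GFP-mCherry- cells was lost without library 1, 3, 6 or 7.

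**Figure D2:**
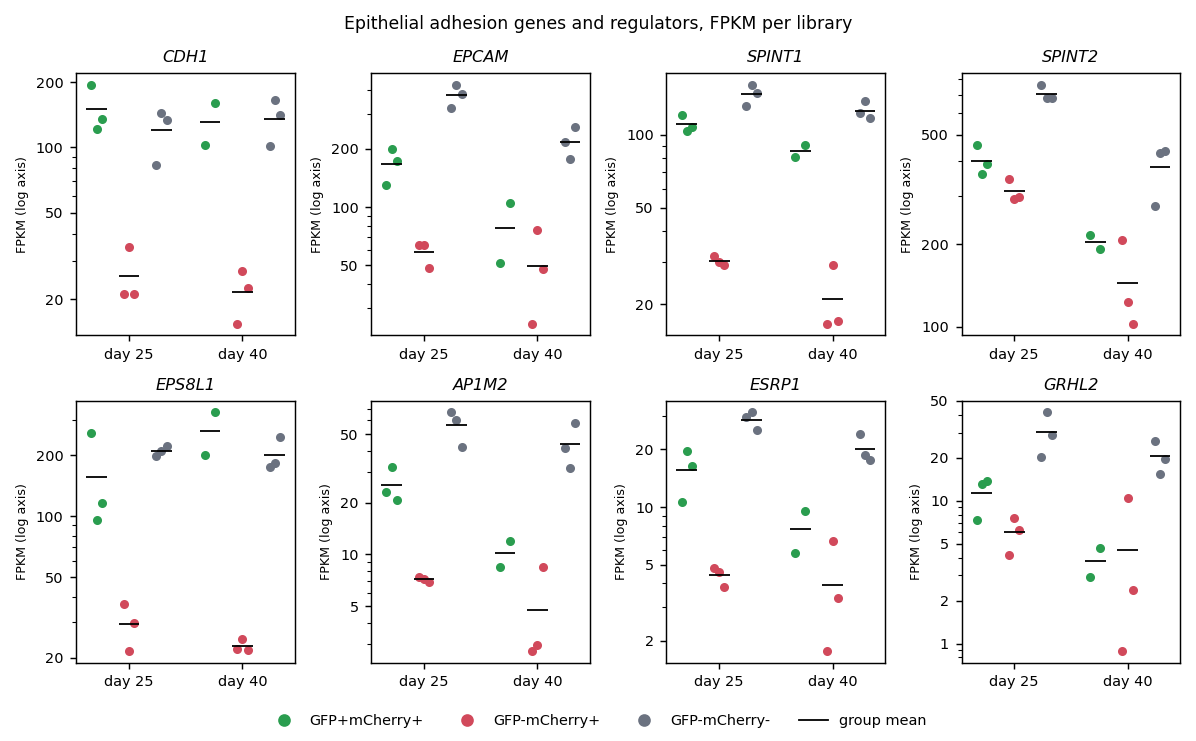
FPKM (log axis) of 8 adhesion genes and regulators in each library at day 25 and day 40, with horizontal lines at group means. CDH1, SPINT1 and EPS8L1 were low in GFP-mCherry+ libraries and near each other in the other populations, while EPCAM, AP1M2, ESRP1 and GRHL2 were highest in GFP-mCherry- libraries.

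ESRP1 drives the epithelial pattern of splicing, and GRHL2 and ELF3 are transcription factors of epithelial genes. ESRP1 read 10.6, 19.6 and 16.4 FPKM in GFP+mCherry+, 4.79, 4.60 and 3.82 in GFP-mCherry+ and 29.5, 31.2 and 25.1 in GFP-mCherry- cells at day 25, with no overlap. By day 40 it read 5.79 and 9.56, then 1.78, 6.68 and 3.34, then 24.1, 18.6 and 17.6. Between the mCherry+ populations the difference passed at day 25 (1.58 ± 0.31, adjusted p 0.00295) and not at day 40 (0.90 ± 0.35, adjusted p 0.0653), where the groups overlapped. GRHL2 read 7.33, 13.1 and 13.7, then 4.20, 7.60 and 6.23, then 20.1, 41.5 and 28.96 FPKM at day 25. Its day 40 values were 2.91 and 4.69, then 0.891, 10.4 and 2.38, then 26.4, 15.4 and 19.7 FPKM. Both mCherry+ populations lay below GFP-mCherry- cells at day 40 (-2.16 ± 0.54 for GFP+mCherry+, adjusted p 0.0171, and -2.33 ± 0.48 for GFP-mCherry+, adjusted p 0.0017). The GFP+mCherry+ call was lost without library 10, 13 or 18. The 10.4 FPKM of library 14 stood above the other mCherry+ libraries of that day. ELF3 read 30.8, 53.1 and 59.8, then 26.5, 45.1 and 66.7, then 56.2, 121 and 87.6 FPKM at day 25, and 24.5 and 27.4, then 97.9, 51.5 and 26.8, then 72.5, 96.7 and 50.1 at day 40. It was the single regulator with no call in any comparison, and its mCherry+ populations overlapped at both days.

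The start sites of members that separated the mCherry+ populations at both days were read from RefSeq promoter sequences, build GRCh38.p14. Of the 37 tested members, 19 were matched by symbol, with 25 start sites. Among the 9 members called at both days, CDH1, KRT7, KRT16 and KRT222 had no match, so their starts were not searched. The motif searched was the E2-box CACCTG, or CAGGTG on the other strand, in the 250 bases before a start. ZEB and SNAI family repressors are known to bind it. At least 1 start held it in 5635 of the 27305 genes of the table (20.6%) and in 7 of the 19 matched members, and by start it was present in 6143 of 35116 promoters (17.5%). Shown are AP1M2 (chr19:10587313-10587562, minus strand), EPS8L1 (chr19:55075619-55075868, plus strand) and SPINT1 (chr15:40843798-40844047, plus strand), each 5′ to 3′ and ending just before the start, with the motif in capitals.
AP1M2: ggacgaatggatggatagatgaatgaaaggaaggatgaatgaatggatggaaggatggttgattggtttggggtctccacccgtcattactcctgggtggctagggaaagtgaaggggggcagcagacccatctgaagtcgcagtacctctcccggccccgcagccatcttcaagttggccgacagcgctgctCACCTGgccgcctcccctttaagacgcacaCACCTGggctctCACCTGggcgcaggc
EPS8L1: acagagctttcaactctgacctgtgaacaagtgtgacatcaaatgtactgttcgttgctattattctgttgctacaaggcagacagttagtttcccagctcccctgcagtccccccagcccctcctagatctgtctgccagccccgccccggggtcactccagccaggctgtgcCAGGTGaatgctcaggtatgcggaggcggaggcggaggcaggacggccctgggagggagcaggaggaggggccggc
SPINT1: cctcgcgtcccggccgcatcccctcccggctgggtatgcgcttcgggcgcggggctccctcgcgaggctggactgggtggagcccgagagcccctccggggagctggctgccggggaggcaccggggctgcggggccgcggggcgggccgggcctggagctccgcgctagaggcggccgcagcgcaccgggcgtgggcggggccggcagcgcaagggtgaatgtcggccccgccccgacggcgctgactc
AP1M2 held 3 copies, starting 57, 27 and 15 bases before the start, a number reached by 0.464% of promoters. EPS8L1 held 1 copy, 76 bases before the start, and the SPINT1 stretch none. Each of these genes but AP1M2 has another start in the table, and there EPS8L1 held no copy and SPINT1 held 1. CLDN1 and CLDN15, also called at both days, held none, but 150 and 250 of their 250 bases were annotated exon. The stretches shown held 3, 16 and 30 such bases. Of the 19 matched members, 2 held at least 3 copies at a start. The other was CLDN7, not called between the mCherry+ populations at day 40, with 4 copies at 1 start. That stretch, and those of ELF3 and KRT5 with a copy, were annotated exon throughout. The 3 genes shown were chosen among members called higher in GFP+mCherry+ than in GFP-mCherry+ cells at both days, so their shared direction is not a result. SNAI2 and ZEB2, which encode factors of the SNAI and ZEB families, were picked after their values were seen. SNAI2 was higher in GFP+mCherry+ than in GFP-mCherry+ cells by 1.48 (limma, adjusted p 0.007) at day 25 and 1.44 (adjusted p 0.011) at day 40. For ZEB2 the differences were 0.77 (adjusted p 0.0463) and 1.05 (adjusted p 0.0153). Both come from a list of 10 mesenchymal transition genes, of which 9 were tested. In that list 2 were higher and 0 lower at day 25 (12% and 8.38% of all tested genes), and 3 were higher and 1 lower at day 40 (16.2% and 9.29%). The 2 of day 25 were SNAI2 and ZEB2, so ZEB1 and SNAI1, of the same families, were not called then. SNAI2 read 26.9 to 45.9 FPKM in GFP+mCherry+ and 8.02 to 15.0 in GFP-mCherry+ libraries of day 25. A match describes letters only. Neither binding nor any effect of SNAI2 or ZEB2 on the members was tested.

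KRT8, KRT18, KRT19 and KRT7, keratins of simple epithelia and mesothelia, made up 93.3% to 99.2% of all keratin FPKM in each library. The keratin sum was 1196 to 1364 FPKM in GFP+mCherry+, 674 to 958 in GFP-mCherry+ and 1822 to 2416 in GFP-mCherry- libraries of day 25. At day 40 the sums were 817 to 1034, 515 to 822 and 1326 to 2462 FPKM. GFP-mCherry- libraries were above both other populations at each day, and the mCherry+ populations overlapped by a narrow margin at day 40.

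KRT18, the type I partner of KRT8, read 449, 356 and 409 FPKM in GFP+mCherry+, 291, 155 and 209 in GFP-mCherry+ and 842, 503 and 556 in GFP-mCherry- cells at day 25. Its day 40 values were 245 and 342, then 156, 125 and 225, then 443, 458 and 753. It was higher in GFP+mCherry+ than in GFP-mCherry+ cells at day 25 (0.93 ± 0.29, adjusted p 0.0321), a call lost without any of libraries 1, 5, 7 and 8, and the day 40 difference was 0.82 ± 0.32 (adjusted p 0.0728). KRT8 read 432, 317 and 387, then 372, 204 and 260, then 838, 519 and 683 FPKM at day 25, and 349 and 345, then 191, 254 and 413, then 568, 524 and 860 at day 40. Its mCherry+ populations overlapped at both days, with differences of 0.47 ± 0.29 and 0.35 ± 0.32 (adjusted p 0.268 and 0.452). The ratio of KRT8 to KRT18 was 1.25 to 1.31 in GFP-mCherry+ and 0.888 to 0.961 in GFP+mCherry+ libraries of day 25. At day 40 these ranges overlapped, at 1.23 to 2.03 and 1.01 to 1.42. KRT8 and KRT18 lie side by side on chromosome 12 with overlapping annotated loci and have many processed copies, so the split of reads between them is uncertain.

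KRT19, a type I keratin without a tail domain, read 384, 422 and 482, then 267, 314 and 184, then 623, 694 and 631 FPKM at day 25, and 163 and 231, then 229, 100 and 146, then 238, 467 and 594 at day 40. GFP-mCherry+ cells were below GFP-mCherry- cells at both days (-1.38 ± 0.32 and -1.43 ± 0.32, adjusted p 0.00428 and 0.00312). Between the mCherry+ populations at day 25 the difference was 0.78 ± 0.32 (adjusted p 0.0993). KRT7 had lower levels and wider differences. It read 35.2, 73.3 and 56.0 FPKM in GFP+mCherry+, 15.5, 12.7 and 6.70 in GFP-mCherry+ and 92.2, 82.9 and 87.4 in GFP-mCherry- cells at day 25, then 27.7 and 45.4, 2.87, 9.32 and 15.9, and 27.8, 58.0 and 177 at day 40. GFP-mCherry+ libraries were below all others, by 2.15 ± 0.57 and 2.06 ± 0.63 against GFP+mCherry+ cells (adjusted p 0.0147 and 0.0257). The day 25 call was lost without library 4 or 8, and the day 40 call without 11 or 13. Library 18, at 177 FPKM, set the upper end of the GFP-mCherry- group.

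Keratins of stratified epithelia were low at day 25, and their sum was above the day 25 range in every GFP-mCherry+ and GFP-mCherry- library of day 40. KRT4, KRT5, KRT6A, KRT13, KRT15, KRT16 and KRT17 together read 6.72 to 16.3 FPKM in GFP+mCherry+, 2.11 to 4.86 in GFP-mCherry+ and 5.58 to 6.32 in GFP-mCherry- libraries at day 25. At day 40 the sums were 15.8 to 45.8, 6.61 to 10.1 and 31.4 to 80.8 FPKM. KRT17, a keratin of basal, stressed and appendage epithelia, was the largest part of this sum in the GFP-mCherry- libraries of day 40. It read 3.48, 2.96 and 3.26 FPKM in GFP+mCherry+, 0.602, 0.516 and 1.85 in GFP-mCherry+ and 2.35, 1.12 and 1.84 in GFP-mCherry- libraries at day 25. The day 40 libraries read 6.22 and 11.5, then 4.08, 7.36 and 6.87, then 20.4, 50.5 and 38.8. Within each population the day 40 libraries were above those of day 25.

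KRT17 rose from day 25 to day 40 by 3.69 ± 0.34 in GFP-mCherry- cells (adjusted p 5.98e-05), the single day change of a member that was called in every alternative setting. It rose by 1.86 ± 0.34 in GFP-mCherry+ cells (adjusted p 0.00925), a call lost without library 5 or library 14. In GFP+mCherry+ cells the difference was 1.17 ± 0.38 (adjusted p 0.094). The order of the populations turned: KRT17 was 0.63 ± 0.34 higher in GFP+mCherry+ than in GFP-mCherry- cells at day 25 (adjusted p 0.254) and lower at day 40 (-1.89 ± 0.38, adjusted p 0.00496). That change of the difference, -2.52 ± 0.51, had an adjusted p of 0.02. It lost its call without any of libraries 6, 7, 10, 15 and 18. KRT17 was the 1 member called of 37 in this test, beside 1.24% of all tested genes, and 0 members were called for the other pairs of populations, beside 0.0135% and 0.00674% of genes. JUP (plakoglobin of desmosomes), whose annotated locus overlaps KRT17, read 91.8 to 125 FPKM at day 25 and 53.9 to 107 at day 40 in GFP-mCherry- cells, a difference that did not pass the test (-0.47 ± 0.28, adjusted p 0.407). In GFP+mCherry+ cells JUP fell between the days (limma, -1.43 ± 0.31, adjusted p 0.0148). At day 40 JUP was lower there than in GFP-mCherry- cells (-1.26 ± 0.31, adjusted p 0.0153), as KRT17 was. The change of that JUP difference between the days was not called (-0.96 ± 0.42, adjusted p 0.531). Sharing of reads between JUP and KRT17 was not tested. KRT17 also shares sequence with KRT14 and KRT16.

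KRT5, the basal type II keratin, read 3.45, 0.391 and 0.514 FPKM in GFP+mCherry+, 0.289, 0.457 and 0.665 in GFP-mCherry+ and 0.327, 0.517 and 0.248 in GFP-mCherry- libraries of day 25. In the day 40 libraries it read 3.01 and 3.17, then 0.485, 0.0329 and 0.355, then 1.27, 5.73 and 3.99. It rose in GFP-mCherry- cells (1.64 ± 0.40, adjusted p 0.0329), as did KRT15 (1.89 ± 0.47, adjusted p 0.0371). Both calls were lost without any of libraries 3, 6, 9, 15 and 18, and that of KRT15 also without 7 or 12. KRT15 reached 16.3 FPKM in library 13 against 1.60 in library 10, the other GFP+mCherry+ library of day 40. KRT6A read 5.14, 0 and 0.395 FPKM in the GFP+mCherry+ libraries of day 25 and 3.01 and 4.34 at day 40, with at most 0.847 FPKM in any other library. At day 40 KRT5 and KRT15 were higher in GFP+mCherry+ than in GFP-mCherry+ cells by 1.68 ± 0.45 and 1.74 ± 0.53 (adjusted p 0.012 and 0.0238), calls lost without library 13. KRT14, the usual partner of KRT5, was not tested, with a highest value of 0.653 FPKM. TP63, the transcription factor of basal stratified epithelium, read 1.36 to 3.62 FPKM in GFP-mCherry- libraries of day 25 and 1.43 to 2.38 at day 40, against at most 0.666 in mCherry+ libraries. The 10 surface ectoderm and squamous markers, TP63 included, summed to 127 to 181 FPKM in GFP-mCherry- cells at day 25 and 111 to 114 at day 40. At each day 5 of the 10 read at least 1 FPKM in every library of that population. Their relation to the rise of KRT17 was not tested.

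**Figure D3:**
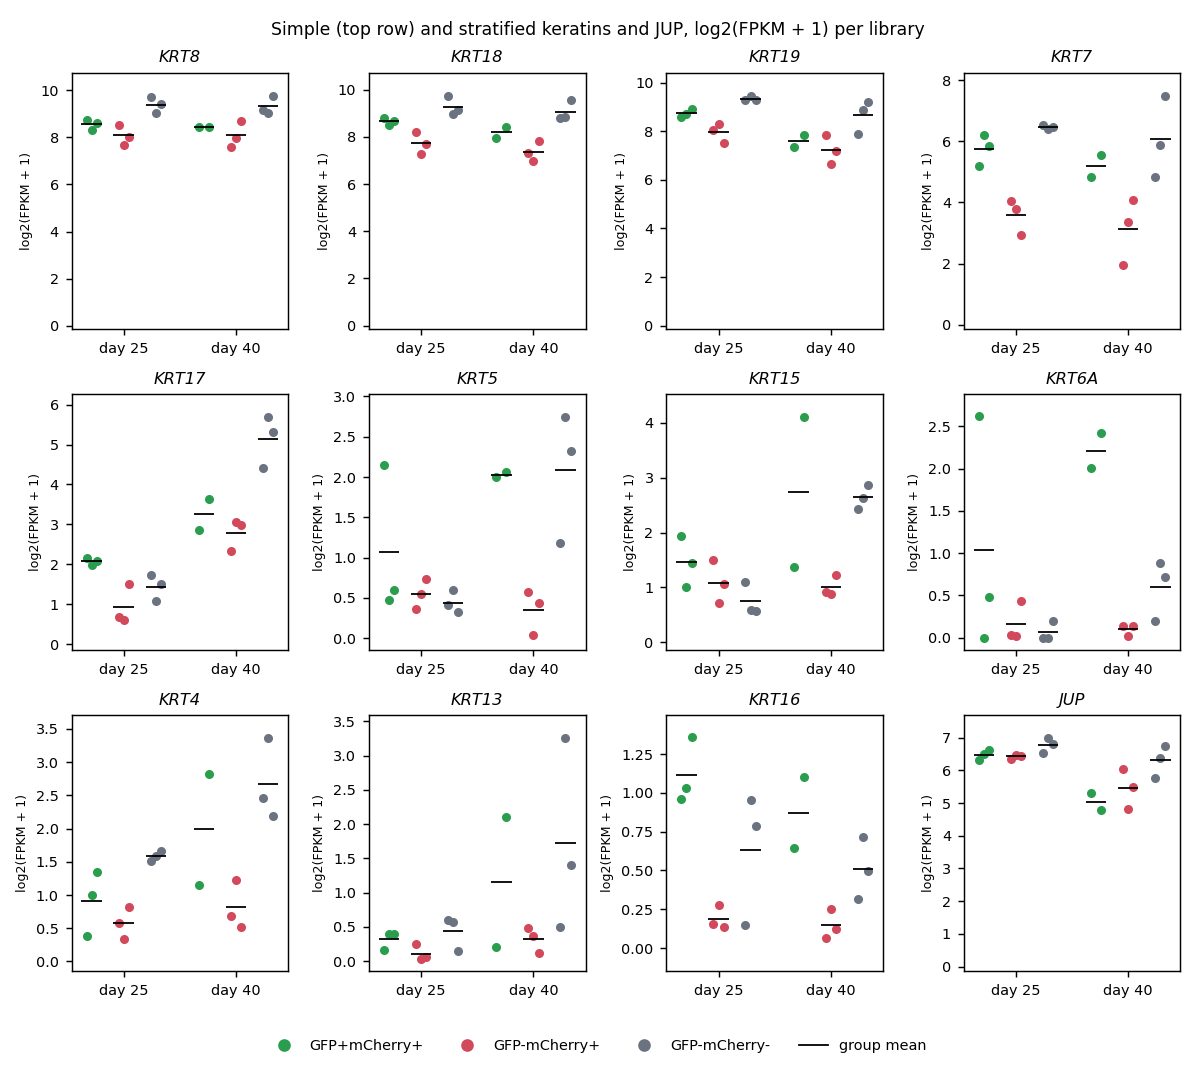
Levels, as log2(FPKM + 1), of 4 simple keratins (top row), 7 stratified keratins and JUP in each library, by population and day, with lines at group means. KRT17 is higher at day 40 in each population and highest in the GFP-mCherry- libraries, while JUP is not.

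KRT24 and KRT222, low keratins of other kinds, had their highest values in GFP+mCherry+ cells at day 25. KRT24 read 2.08, 1.63 and 3.62 FPKM there, 0.0410, 0.264 and 0.181 in GFP-mCherry+ and 0.240, 0.866 and 0.735 in GFP-mCherry- libraries. In day 40 libraries it read 0.117 and 1.55, then 0, 0.279 and 0, then 0.285, 0.635 and 0.421 FPKM, with overlap. Since KRT24 entered the test through GFP+mCherry+ libraries alone, its levels are a description. KRT222, a keratin-like gene whose product lacks much of the rod, read 6.27, 6.16 and 7.43 FPKM in GFP+mCherry+, 2.58, 1.95 and 2.26 in GFP-mCherry+ and 3.68, 3.50 and 3.65 in GFP-mCherry- cells at day 25. At day 40 the values were 4.18 and 4.98, then 1.65, 2.26 and 1.96, then 2.186, 2.75 and 2.17. GFP+mCherry+ cells were higher in all 4 comparisons with another population, by 0.72 ± 0.17 to 1.22 ± 0.17 (adjusted p 0.000403 to 0.0215). Its 2 rows under different identifiers were summed, and each of the 4 calls was lost when the higher row alone was kept. Those against GFP-mCherry- cells were also lost without library 7 at day 25, and without 13 or 18 at day 40. Its locus also overlaps SMARCE1.

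CLDN6, a claudin of embryonic and pluripotent-derived epithelia, had the highest mean level of the claudins over the 6 groups and was the single tested member called lower in GFP+mCherry+ than in GFP-mCherry+ cells. At day 25 it read 99.8, 195 and 139 FPKM in GFP+mCherry+, 207, 208 and 163 in GFP-mCherry+ and 329, 372 and 240 in GFP-mCherry- cells. Values of day 40 were 42.4 and 38.3, then 133, 95.9 and 163, then 174, 158 and 350. The mCherry+ populations overlapped at day 25 (-0.46 ± 0.30, adjusted p 0.302) and were apart at day 40 (-1.64 ± 0.33, adjusted p 0.00276). Against GFP-mCherry- cells, CLDN6 was lower in GFP+mCherry+ cells by 1.14 and 2.37 (differences -1.14 ± 0.30 and -2.37 ± 0.33, adjusted p 0.0226 and 0.000407), the day 25 call being lost without library 1, 3, 6 or 7. It fell from day 25 to day 40 in GFP+mCherry+ cells by 1.76 (SE 0.33, adjusted p 0.00626), a call lost without library 13. The change between the days in its difference from GFP-mCherry+ cells was -1.18 ± 0.45 (adjusted p 0.623), so a larger fall in one population was not shown. CLDN6 took 68.7% to 74.6% of claudin FPKM in GFP-mCherry+ libraries of day 25, 36.3% to 54.4% in GFP+mCherry+ and 48.5% to 62.0% in GFP-mCherry- libraries. In GFP+mCherry+ libraries of day 40 it took 21.0% to 22.9%. Its locus overlaps TNFRSF12A, for which the GFP+mCherry+ difference from GFP-mCherry+ cells at day 40 was -0.73 ± 0.34 (adjusted p 0.127). Against GFP-mCherry- cells of that day TNFRSF12A was called lower in GFP+mCherry+ cells, as CLDN6 was (limma, -1.21 ± 0.34, adjusted p 0.0309). Sharing of reads between CLDN6 and TNFRSF12A was not tested.

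CLDN15, which forms channels for cations, had another order. It read 75.6, 18.8 and 41.9 FPKM in GFP+mCherry+, 6.82, 6.84 and 9.27 in GFP-mCherry+ and 25.7, 31.9 and 53.0 in GFP-mCherry- libraries at day 25. By day 40 it read 77.5 and 57.8, then 7.31, 5.35 and 4.35, then 32.9, 61.0 and 37.4. GFP-mCherry+ libraries were below all others, by 2.23 ± 0.39 and 3.37 ± 0.44 against GFP+mCherry+ cells (adjusted p 0.00162 and 0.00019). In the 2 GFP+mCherry+ libraries of day 40 CLDN15 exceeded CLDN4 by 3.26 and 8.05 times, and in no GFP-mCherry+ or GFP-mCherry- library was this ratio above 1.13.

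CLDN4 and CLDN7, sealing claudins of many simple epithelia, had the same order as EPCAM, which binds CLDN7, at day 25. CLDN4 read 28.4, 42.7 and 42.1, then 12.9, 17.7 and 19.2, then 61.2, 98.4 and 87.5 FPKM at day 25. The day 40 libraries read 9.63 and 17.7, then 6.49, 19.1 and 6.78, then 53.1, 85.0 and 37.7. CLDN7 read 24.1, 44.3 and 38.0, then 14.7, 16.8 and 12.3, then 72.5, 90.3 and 58.6 FPKM at day 25, and 8.14 and 22.3, then 5.51, 19.8 and 10.7, then 34.6, 61.7 and 67.2 at day 40. The 3 populations were apart at day 25, and at day 40 the mCherry+ populations overlapped for both genes. CLDN4 and CLDN7 were higher in GFP+mCherry+ than in GFP-mCherry+ cells at day 25 by 1.13 ± 0.37 and 1.19 ± 0.40 (adjusted p 0.0405 and 0.0464). Both calls were lost without any of libraries 2, 4, 5, 7, 8 and 9, and that of CLDN7 also without 3, 6, 15 or 17. At day 40 GFP+mCherry+ cells were below GFP-mCherry- cells, by 2.00 and 1.87 (differences -2.00 ± 0.41 and -1.87 ± 0.45, adjusted p 0.00602 and 0.0138). Those calls were lost without library 10 and, for CLDN7, without 18.

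CLDN3, another sealing claudin, read at most 0.256 FPKM in mCherry+ libraries of day 40. It read 1.25, 2.71 and 2.55, then 1.60, 2.20 and 1.07, then 3.80, 10.4 and 9.21 FPKM at day 25, and 0.179 and 0, then 0.256, 0 and 0.0568, then 0.600, 3.35 and 1.55 at day 40. Its fall between the days was called in GFP+mCherry+ cells (-1.51 ± 0.40, adjusted p 0.0457) and in GFP-mCherry- cells (-1.66 ± 0.36, adjusted p 0.0186). The difference in GFP-mCherry+ cells was -1.23 ± 0.36 (adjusted p 0.0627). The GFP+mCherry+ call did not hold in 16 of 27 alternative settings, among them leaving out library 2, 4, 5, 7, 9, 10, 13, 17 or 18. The GFP-mCherry- call was lost without library 6, 9 or 12. CLDN1, a claudin of barrier epithelia, was higher in GFP+mCherry+ than in GFP-mCherry+ cells at both days (1.42 ± 0.34 and 1.28 ± 0.38, adjusted p 0.00874 and 0.0213), the later call being lost without library 10, 11 or 13. CLDN12, a claudin found in many tissues, varied little. It read 23.6, 28.2 and 26.2, then 23.7, 22.6 and 22.1, then 19.6, 23.0 and 19.5 FPKM at day 25, and 24.4 and 26.6, then 22.0, 24.5 and 21.9, then 16.9, 20.0 and 22.1 at day 40. CLDN12 was called in no comparison, and its locus overlaps CDK14 and GTPBP10.

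**Figure D4:**
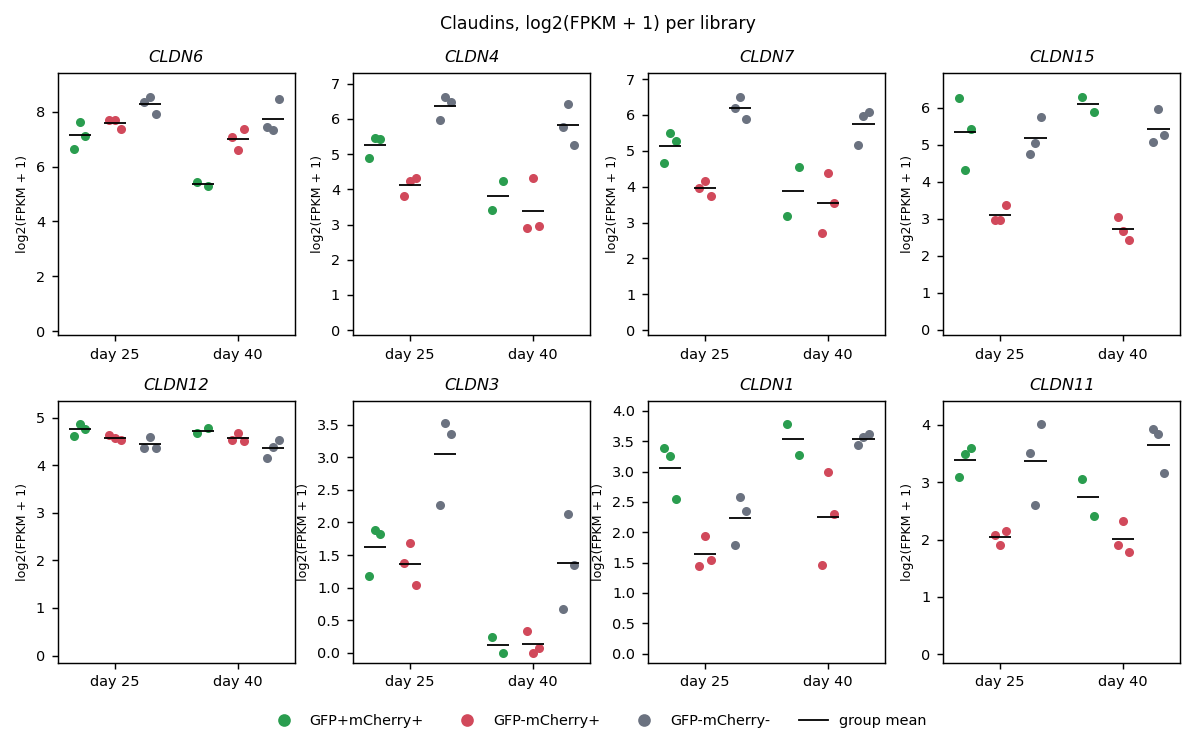
Levels, as log2(FPKM + 1), of 8 claudins in each library by population and day, with lines at group means. CLDN6 is lowest in the GFP+mCherry+ libraries of day 40, CLDN15 is lowest in GFP-mCherry+ libraries, and CLDN12 hardly varies.

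Counted over the 37 tested members, GFP+mCherry+ cells differed from GFP-mCherry+ cells in 1 main direction. At day 25, 18 were higher and 0 lower, against 12% of all tested genes called higher and 8.38% called lower. At an unadjusted p under 0.05 (limma), 21 were higher and 0 lower, and the share of all genes at that limit was not counted. The median member difference was 0.87, and that of all tested genes 0.06. At day 40, 12 were higher and 1, CLDN6, was lower, against 16.2% and 9.29% of all genes, with a member median of 0.69 and a median of all genes of 0.08. Called at both days were 9 members: AP1M2, CDH1, CLDN1, CLDN15, EPS8L1, KRT16, KRT222, KRT7 and SPINT1. The calls include KRT16 and KRT24 at day 25 and KRT16 and KRT6A at day 40, which reached 1 FPKM in GFP+mCherry+ libraries alone and so were tested because they were high there. The day 40 call of KRT16 was also lost without library 11, 13 or 17. Without libraries 13 and 14 the day 40 count fell to 7.

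GFP-mCherry+ cells lay below GFP-mCherry- cells across much of the list. At day 25, 19 of 37 were lower and 0 higher, against 16.4% and 12.1% of all tested genes. At day 40, 23 were lower and 0 higher, against 18.5% and 13.3%. The member medians were -1.01 and -1.43, and those of all genes -0.10 and -0.09. At an unadjusted p under 0.05 (limma), 23 and 26 members were lower and 0 higher, again without a share of all genes to set beside them. The 18 members lower at both days held 8 of the 9 single-named genes, ELF3 being the exception, with CLDN3, CLDN4, CLDN7, CLDN11, CLDN15, KRT7, KRT8, KRT18, KRT19 and KRT80. Lower at day 40 and not called at day 25 were KRT17, KRT4, KRT5, CLDN1 and KRT15.

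Against GFP-mCherry- cells, more members were called lower than higher in GFP+mCherry+ cells. The share called higher was not above that of all tested genes at either day. At day 25, 2 were higher (KRT222 and KRT24) and 5 lower (CLDN3, CLDN6, EPCAM, AP1M2 and SPINT2), against 5.78% and 5.27% of all genes. At day 40, 2 were higher (KRT222 and KRT6A) and 9 lower, against 7.04% and 4.76%. The 9 were CLDN6, AP1M2, KRT17, CLDN4, EPCAM, CLDN7, GRHL2, ESRP1 and SPINT2. The day 40 calls of KRT6A and SPINT2 were lost in 21 of 26 and 15 of 27 alternative settings, and KRT6A, like KRT24 at day 25, entered the test through GFP+mCherry+ libraries alone. The member medians were -0.43 and -0.69, against -0.03 and 0.02 for all genes. None of the 7 calls of day 25 held in every alternative setting, and leaving out single libraries moved their count between 1 and 10. The 3 contrasts between populations share libraries, so their counts are not independent of each other.

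**Figure D5:**
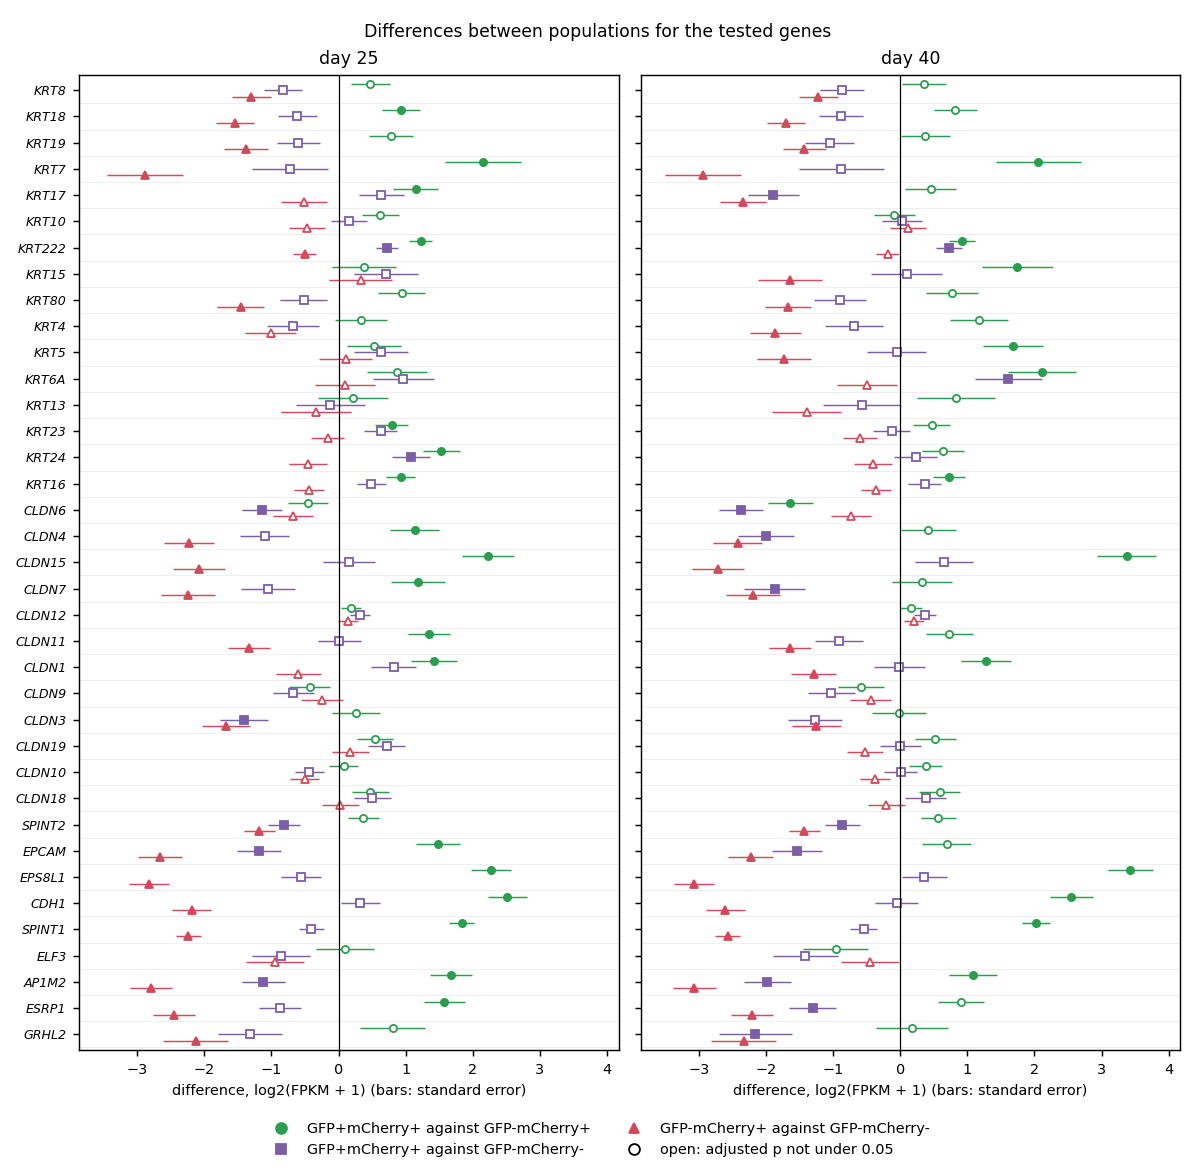
Differences (horizontal, log2 FPKM + 1, bars for standard errors) of the 37 tested members (vertical) between each pair of populations at day 25 and day 40, filled where the adjusted p was under 0.05. Green symbols (GFP+mCherry+ against GFP-mCherry+) lie mostly right of 0 and red symbols (GFP-mCherry+ against GFP-mCherry-) mostly left of it, with CLDN6 the filled green symbol left of 0 at day 40, beside open ones for CLDN3, CLDN9, ELF3 and KRT10.

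Few members were called as changed between the days, and a member that was not called may still have changed. In GFP+mCherry+ cells 0 of 37 rose and 3 fell (CLDN6, CLDN3 and SPINT2), against 2.18% and 1.88% of all tested genes. In GFP-mCherry+ cells KRT17 rose and SPINT2 fell, against 0.633% and 3.91%. In GFP-mCherry- cells 4 rose (KRT17, KRT5, KRT15 and CLDN1) and 2 fell (CLDN3 and SPINT2), against 1.56% and 2.32%. The call of CLDN1 was lost in 14 of 27 alternative settings. At an unadjusted p under 0.05 (limma), 6 members were higher and 13 lower at day 40 in GFP+mCherry+ cells. Those counts were 1 and 4 in GFP-mCherry+ cells, and 7 and 4 in GFP-mCherry- cells. The share of all tested genes at this unadjusted limit was not counted, so the counts cannot be set against it. SPINT2 fell in each population, by 0.97, 1.17 and 0.92 (adjusted p 0.0486, 0.0128 and 0.0389). Those calls were lost in 20, 6 and 13 of 27 alternative settings. PPP1R14A, which overlaps SPINT2, also fell in both mCherry+ populations (-1.22 ± 0.31 and -1.79 ± 0.28, adjusted p 0.0366 and 0.00435). Its means went from 5.97 to 2.01 FPKM in GFP+mCherry+ and from 11.6 to 2.77 in GFP-mCherry+ cells. Those of SPINT2 went from 403 to 204 and from 311 to 144 FPKM. Sharing of reads between these genes was not tested.

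Other genes of epithelial junctions and polarity, from a list of textbook names, were read beside the members. Of 19 tested, 6 were higher at day 25 and 7 at day 40 in GFP+mCherry+ than in GFP-mCherry+ cells, with 0 lower, beside 12% and 16.2% of all tested genes called higher. F11R, the junctional adhesion molecule A, read 70.1, 72.1 and 61.6 FPKM against 41.9, 30.03 and 36.0 at day 25 (0.91, adjusted p 0.00235). TJP3, the tight junction scaffold ZO-3, differed by 0.96 and 1.09 (adjusted p 0.00933 and 0.00629) at day 25 and day 40. GFP-mCherry+ cells were lower than GFP-mCherry- cells in 14 and 15 of the 19 (16.4% and 18.5% of all genes), and higher in 1, CGNL1, at each day (12.1% and 13.3%). Against GFP-mCherry- cells, GFP+mCherry+ cells were lower in 5 and 7 (5.27% and 4.76% of all genes) and higher in 0, with CDH3, P-cadherin, at -1.54 and -1.37 (adjusted p 0.00253 and 0.0115).

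Among 27 tested genes of a broader epithelial list, 13 at day 25 and 9 at day 40 were higher in GFP+mCherry+ than in GFP-mCherry+ cells and 0 lower, beside the same 12% and 16.2% of all genes. MYO5B, a motor of apical recycling, read 47.1, 29.7 and 28.0 FPKM against 6.63, 5.12 and 12.0 at day 25 (2.05, adjusted p 0.000343). MAL2, a protein of transcytosis, differed by 1.67 and 1.91 (adjusted p 0.003 and 0.00184). GFP+mCherry+ cells were lower than GFP-mCherry- cells in 11 of the 27 at each day (5.27% and 4.76% of all genes) and higher in 0. GFP-mCherry+ cells were lower than them in 20 and 21 (16.4% and 18.5%), also with 0 higher. PRSS8, the membrane protease prostasin, fell from day 25 to day 40 in all 3 populations (-2.12, -1.41 and -1.37, adjusted p 0.000161, 0.0068 and 0.00594). In GFP-mCherry- cells it read 113, 149 and 120 FPKM, then 36.5, 51.3 and 60.3. AGR2, a disulfide isomerase of secretory epithelium, rose there from 2.04, 1.44 and 2.36 to 16.01, 11.3 and 11.8 FPKM (2.25, adjusted p 0.00207).

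Markers of other cells also differed between the populations. The 10 cardiomyocyte markers summed to 783 to 1166 FPKM in GFP-mCherry-, 6150 to 15017 in GFP+mCherry+ and 24352 to 31383 in GFP-mCherry+ libraries of day 25, an order opposite to that of EPCAM. At day 40 the sums were 724 to 3165, 6593 to 11005 and 17816 to 32071 FPKM. The 13 epicardial and mesothelial markers summed to 412 to 735 FPKM in GFP-mCherry-, 211 to 589 in GFP+mCherry+ and 94.5 to 195 in GFP-mCherry+ cells at day 25, with 0 of 13 at 0 throughout any group. At day 40 they summed to 379 to 622, 310 to 415 and 88.2 to 98.0 FPKM. The 15 endoderm and hepatic markers were highest in GFP+mCherry+ cells at day 25 (688 to 1779 FPKM, against 135 to 740 in GFP-mCherry+ and 331 to 582 in GFP-mCherry-) and in GFP-mCherry- cells at day 40 (1007 to 2125, against 554 to 683 in GFP+mCherry+ and 187 to 445 in GFP-mCherry+). The 12 lung-like secretory markers summed to 1322 to 1565 FPKM in GFP+mCherry+ cells at day 40, with 5 of 12 at 0 in both libraries, NKX2-1 and SFTPB among them. In the GFP-mCherry+ and GFP-mCherry- libraries of that day they summed to 24.4 to 109 and 138 to 373 FPKM. At day 25 their sum was 63.9 to 1201 FPKM in GFP+mCherry+, 11.4 to 97.1 in GFP-mCherry+ and 33.7 to 75.2 in GFP-mCherry- libraries. Among 8 fibroblast markers the sum was 2922 to 4043 FPKM in GFP-mCherry+, 8532 to 14169 in GFP+mCherry+ and 7155 to 8740 in GFP-mCherry- cells at day 25, and 1978 to 7326, 11382 to 12379 and 11282 to 23092 FPKM at day 40. Of 7 endothelial markers, 6 were in the table, and their sum at day 25 was 18.0 to 40.6 FPKM in GFP-mCherry+, 41.6 to 228 in GFP+mCherry+ and 62.4 to 122 in GFP-mCherry- libraries. At day 40 it was highest in GFP+mCherry+ cells (217 to 239 FPKM, against 18.98 to 56.6 in GFP-mCherry+ and 81.9 to 156 in GFP-mCherry-), an order unlike that of EPCAM. The part of these cells in the differences of the members was not tested.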

How the data were processed

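Expression values in the table the authors deposited were taken as FPKM, since its header names no unit and Cufflinks 2.1.1 is named, with bcl2fastq 2.19, cutadapt, STAR 2.5.2b and hg19, per the submitters' processing notes. The labels name the TruSeq kit, and whether it kept strand is not given in the sources used here. Rows of the same gene name were summed. Each FPKM value had 1 added and log2 taken, and a gene entered the tests if 2 or more libraries reached 1 FPKM (14845 of 20218). With limma 3.58.1 under R 4.3.3, all 17 libraries were fitted by 6 group means (lmFit, contrasts.fit, then trended eBayes), which left 11 degrees of freedom for the residual. P-values of the 9 comparisons and of 3 changes of a difference between the days were each adjusted over all tested genes by Benjamini-Hochberg, with a call at an adjusted p under 0.05. Errors of differences are limma's moderated standard errors.

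FPKM carry no read counts, so no counting intervals were computed and only the spread between libraries bears on precision. Data were simulated for these 14845 genes, with changes planted only in genes whose mean log2(FPKM + 1) was above 1. The share of genes changed was smaller than the share called in the data. The fits called 34% to 57% of changes of 1 log2 unit and 86% to 94% of changes of 2, with 2 to 11 false calls per comparison. These figures do not cover members with lower means. A locus that overlaps another, or a gene with near-identical copies (KRT5 and KRT6A, KRT14, KRT16 and KRT17, KRT8 and KRT18), may share reads and is uncertain.

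Values in every library are given for CDH1, EPCAM, KRT17, CLDN6, CLDN3, SPINT1, the other single-named members, the 5 keratins and 5 claudins with the highest means over the 6 groups, and up to 3 called members with the smallest adjusted p per comparison. Other genes named with values (KRT6A, KRT15, KRT14, KRT10, CLDN1, TP63, SNAI2, ZEB2, CGNL1, JUP, PPP1R14A and TNFRSF12A) were chosen after their values were seen. Up to 3 genes per comparison of the other epithelial lists are named by the same ranking. The members and lists were chosen with earlier results of these data known. Alternatives covered a pseudocount of 0.1, filters of none and of 5 FPKM, scaling by median of ratios or by quantiles, a fit of only the groups compared, a block on consecutive library numbers, single values at 0 set to missing, and each library left out. After the data were seen, leaving out libraries 13 and 14 and keeping the highest row of a gene name were added.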

Additional observations from a re-analysis of the deposited data

Results flagged for a closer look

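The difference of KRT17 between GFP+mCherry+ and GFP-mCherry- cells changed between day 25 and day 40 by -2.52 ± 0.51 (standard error) on the log2(FPKM + 1) scale, by a test of that change itself (limma, adjusted p 0.02). KRT17 read 2.96 to 3.48 FPKM in GFP+mCherry+ and 1.12 to 2.35 FPKM in GFP-mCherry- libraries of day 25. At day 40 it read 6.22 to 11.5 and 20.4 to 50.5 FPKM, with 2 and 3 libraries.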

How the results depend on the processing

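Of the calls, 18 of 19 and 22 of 23 between GFP-mCherry+ and GFP-mCherry- cells (day 25 and day 40) held in every alternative tried, as did 11 of 18 and 5 of 13 between GFP+mCherry+ and GFP-mCherry+ cells, 0 of 7 and 2 of 11 between GFP+mCherry+ and GFP-mCherry- cells, and 1 of 11 over the day comparisons. For GFP+mCherry+ against GFP-mCherry+ at day 40, the 13 called members became 7 with only the groups compared in the fit and 7 without libraries 13 and 14. For GFP+mCherry+ against GFP-mCherry- at day 25, the 7 became 4 with a pseudocount of 0.1, 3 with no filter, 14 with only the groups compared, 13 with a block on consecutive library numbers and 12 without libraries 13 and 14. At day 40 the 11 became 7 with only the groups compared. Between the days, the 3 of GFP+mCherry+ cells became 1 with no filter, with a filter at 5 FPKM, with median-of-ratios scaling and with only the groups compared. The 2 of GFP-mCherry+ cells became 0 with only the groups compared, and the 6 of GFP-mCherry- cells became 2 with a pseudocount of 0.1 and 3 with only the groups compared. The changed difference of KRT17 was lost (1 to 0) with a pseudocount of 0.1 and with no filter. The cause was not tested.

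Leaving out 1 library at a time gave 13 to 19 and 6 to 17 called members for GFP+mCherry+ against GFP-mCherry+ (day 25 and day 40), 1 to 10 and 5 to 13 for GFP+mCherry+ against GFP-mCherry-, and 18 to 20 and 23 to 25 for GFP-mCherry+ against GFP-mCherry-. The ranges between the days were 1 to 7 (GFP+mCherry+), 0 to 3 (GFP-mCherry+) and 1 to 6 (GFP-mCherry-). For the 3 changes of a difference they were 0 to 1, 0 to 1 and 0 to 0. The difference of CDH1 between GFP+mCherry+ and GFP-mCherry- cells at day 40, near 0, reversed without library 10 (0.26) or 15 (0.10), over a range from -0.37 to 0.26. The labels do not say that consecutive library numbers share a culture, so the block on them is an alternative and not a known pairing. Read depth was not known, so what it limits could not be measured.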
